A study of Homo sapiens with 6 samples.

Results

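GDF15, GDF11, BMP2, BMP4, BMP7, INHBA, INHBE, TGFB1, TGFB2 and FST were followed on expression arrays of cells with and without a short hairpin RNA (shRNA) against the transcription factor SOX9. These 10 genes encode 9 ligands of the TGF-beta superfamily and follistatin (FST), a secreted protein that binds activins and is not itself a ligand. They were chosen by name, with earlier results of these data known. Every probe set, a group of probes for one transcript, that the deposited table assigns to one of these symbols was taken. This gave 22 of the 49293 probe sets that are not controls, and 10 of 18601 named genes. The knockdown cells were labelled HepG2, an established human liver cancer line, and carried a virus with an shRNA against SOX9 (genotype label SOX-9 knockdown). The empty-virus cells were also labelled HepG2 and were infected with the empty virus (genotype label control). Both were grown in DMEM with serum and measured on 3 arrays each. The protocol describes 1 knockdown clone and its negative control clone, so an effect of the knockdown and a difference between clones cannot be told apart. The labels do not state whether replicates were grown as separate cultures, so the p-values cover the spread among arrays alone, which may be technical. Fewer expressing cells and less RNA per cell cannot be told apart in such samples.

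TGF-beta superfamily ligands are secreted as precursors, cut by proprotein convertases, and act as dimers on pairs of serine/threonine kinase receptors. TGF-betas and activins signal mainly through SMAD2 and SMAD3, and BMPs through SMAD1, SMAD5 and SMAD9, while soluble antagonists such as follistatin and noggin hold ligands away from their receptors. GDF15 is a distant relative that acts through GFRAL and the receptor kinase RET in the brainstem, is released by stressed cells and lowers food intake. In the liver, INHBE encodes the subunit of activin E. GDF15 and INHBE are known targets of ATF4, the transcription factor of the integrated stress response, and GDF15 is also a known target of p53.

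The description label of the knockdown arrays names the empty virus, against their title and genotype labels, so SOX9 was checked first. It was lower on all 3 knockdown arrays at the probe set of highest signal, 11758216_s_at, with log2 signals of 6.91, 7.08 and 6.90 in SOX9 shRNA cells, against 8.15, 7.99 and 7.67 in empty-virus cells. Its log2 fold change was -0.97 (SE 0.13, limma adjusted p = 0.00294 over all probe sets). Of its 3 probe sets 2 passed, and 11720448_at did not (-0.81, adjusted p = 0.0716), with overlapping groups. The labelled cell type was not borne out by its markers: of 12 hepatocyte markers, 1 (TTR) had a mean of at least 5 in a group. ALB averaged 3.37 ± 0.26 in SOX9 shRNA cells and 3.14 ± 0.44 in empty-virus cells, and AFP 2.61 ± 0.11 and 2.70 ± 0.14 in the same order (SD, n = 3 each). The mean over the 12 hepatocyte markers was 3.75 to 3.93 on SOX9 shRNA arrays and 3.69 to 3.93 on empty-virus arrays. Of 9 fibroblast and stellate markers 1 rose (DCN, 0.59, at 2 of its 4 probe sets) and 1 fell (ACTA2, -1.18, at 1 of its 3 probe sets), which is 22.2%. Of 7 endothelial markers 0 passed by limma (KDR -0.17, adjusted p = 0.667), and of 8 leukocyte markers 1 rose (CD68, 0.62), which is 12.5%. Over all genes 16.7% passed. Without adjustment, 0 hepatocyte and 0 endothelial markers had a p under 0.05. Median log2 signals of the arrays were 5.42 to 5.48, and arrays correlated at 0.9919 to 0.9959 within and 0.9823 to 0.9919 between groups. GAPDH control sets at both ends of the transcript, which report on RNA integrity, differed (3' end minus 5' end) by 0.42, 0.37 and 0.24 in SOX9 shRNA cells and 0.04, 0.03 and 0.26 in empty-virus cells (exact permutation p = 0.2), and the poly-A spike-ins read 7.30, 6.94 and 7.14 in SOX9 shRNA cells and 6.50, 6.66 and 7.12 in empty-virus cells (exact permutation p = 0.2). On these measures empty-virus array 3 read between the lowest and highest knockdown arrays. The actin control sets ran the other way, with a 3' minus 5' difference of 2.29, 2.34 and 2.19 in SOX9 shRNA cells and 2.56, 2.55 and 2.51 in empty-virus cells, groups that did not overlap (exact permutation p = 0.1, the smallest possible).

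The promoters of the genes whose probe sets changed are shown because GDF15 fell while GDF11 and BMP4 rose, and because GDF15 is known as an ATF4 target. RefSeq windows (GRCh38.p14) of 250 bases before to 50 after the transcript start were matched by symbol for 7 of the 10 genes; BMP2, BMP7 and INHBE had no entry. The windows are those of GDF15 (chr19:18385908-18386207, plus strand), GDF11 (chr12:55742872-55743171, plus strand) and BMP4 (chr14:53955001-53955300, minus strand, 1 of its 3 windows). Capitals mark TATAAA, the letters of a TATA box, which the BMP4 window lacks.
GDF15: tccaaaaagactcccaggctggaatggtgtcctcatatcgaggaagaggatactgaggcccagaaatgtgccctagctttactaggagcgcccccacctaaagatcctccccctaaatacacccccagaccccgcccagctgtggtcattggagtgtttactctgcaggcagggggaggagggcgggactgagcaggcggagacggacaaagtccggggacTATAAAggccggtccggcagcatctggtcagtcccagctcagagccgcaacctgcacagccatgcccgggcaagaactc
GDF11: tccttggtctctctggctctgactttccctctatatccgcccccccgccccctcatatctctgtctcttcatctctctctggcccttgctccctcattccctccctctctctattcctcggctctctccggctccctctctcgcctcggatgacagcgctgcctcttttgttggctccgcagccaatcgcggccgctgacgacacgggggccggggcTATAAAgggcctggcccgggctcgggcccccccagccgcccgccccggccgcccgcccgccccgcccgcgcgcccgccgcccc
BMP4: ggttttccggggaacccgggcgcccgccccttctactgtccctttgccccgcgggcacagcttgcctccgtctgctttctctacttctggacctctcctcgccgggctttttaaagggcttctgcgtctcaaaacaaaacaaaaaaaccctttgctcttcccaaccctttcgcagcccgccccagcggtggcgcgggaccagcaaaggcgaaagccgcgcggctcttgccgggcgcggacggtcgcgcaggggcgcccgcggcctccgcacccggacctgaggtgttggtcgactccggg

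TATAAA began 29 bases before the start in GDF15 and 33 bases before it in GDF11. On either strand it was found in 4 of the 9 windows (44.4%; those of GDF15, GDF11, INHBA and TGFB2), and in 11.5% of all 35116 windows. GDF15, which fell, and GDF11, which rose at 1 probe set, share these letters, which were added to the search after the sequences were seen. The core of the C/EBP-ATF response element, TGATGNAA on either strand, was in none of the 9 windows of the 7 genes, GDF15 included, and in 3.62% of all windows. Among other ATF4 target genes with an entry, 14 of 32 had it in 1 or more windows. Counted by window, as for the 3.62%, it was in 14 of their 49 windows (28.6%). ASNS, the asparagine synthetase and the most strongly lowered of those targets, shows what the letters look like, with the motif in capitals (chr7:97872443-97872502, minus strand).
ASNS: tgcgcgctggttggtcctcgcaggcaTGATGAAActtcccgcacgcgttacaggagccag
The cyclic AMP response element TGACGTCA (1.85% of all windows) and the SOX core AACAAT (10.1%), on either strand, were in none of the 9 windows either. These are matches of letters within a short window, not binding sites, and the absence of letters there says nothing of sites elsewhere.

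Of the 22 probe sets, 6 passed at a limma adjusted p under 0.05 over all probe sets, 4 lower and 2 higher in SOX9 shRNA cells, which is 27.3% of them. Over all 49293 probe sets 12.6% passed, 6.68% lower and 5.94% higher. The genes were chosen with earlier results of these data known, so the difference between these shares is no independent evidence. The median log2 fold change was -0.04 for the 22 probe sets and 0.01 for all probe sets. The 6 passing sets belong to 4 genes, GDF15 and INHBE lower and BMP4 and GDF11 higher, and the other 6 genes had no passing set. The 3 passing GDF15 sets align to the same positions and are not independent. With each gene taken by its set of highest mean, as for the lists below, 3 of the 10 genes passed. That is 30% (1 higher and 2 lower), against 16.7% of all genes. GDF11 did not pass by that rule (0.35, limma adjusted p = 0.120 over genes). The groups did not overlap for 11 of the 22, and for 29.6% of all probe sets. In 7 of the 22 the mean was under 5 in both groups, a range in which RMA compresses signals, so that fold changes there are likely to be understated. Over the whole array 6220 sets passed, and 2508 to 3847 passed without SOX9 shRNA array 1, 2 or 3 or empty-virus array 1 or 2, while at least 5 of the 22 passed in each of these fits. Without empty-virus array 3 the whole-array count was 8757, with 7 of the 22 passing.

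GDF15, the stress cytokine, fell at 3 of its 5 probe sets. At 11716663_a_at the log2 signal was 5.40, 5.68 and 5.46 in SOX9 shRNA cells, against 7.16, 7.08 and 6.83 in empty-virus cells. The groups were far apart, with every knockdown array more than 1 log2 unit below every empty-virus array. The log2 fold change was -1.51 (SE 0.12, limma adjusted p = 3.27e-04), which left 35.2% of the empty-virus signal. At 11716665_s_at the signal was 4.36, 4.08 and 4.44 in SOX9 shRNA cells, against 6.31, 6.30 and 5.79 in empty-virus cells, and the log2 fold change was -1.84 (SE 0.16, limma adjusted p = 4.30e-04). The brightest set, 11716664_x_at, read 6.40, 6.37 and 6.17 in SOX9 shRNA cells, against 7.56, 7.46 and 7.37 in empty-virus cells. Its fold change was the smallest of these 3 sets, at -1.15 (SE 0.11, limma adjusted p = 5.19e-04). Among all probe sets ordered by log2 fold change from the lowest, these sets stood 103rd, 47th and 275th, in the order described. All 3 passed under each of 14 other settings tried, which include the second deposited table with its identical values.

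The other 2 GDF15 probe sets did not pass, and they differ from the rest in orientation. The table aligns the 3 sets that fell to chromosome 19, positions 18496769 to 18499986 on the plus strand, which is the strand of the gene in RefSeq; no source used here names the build of the table's coordinates. It aligns 11757729_s_at and 11757730_x_at to positions 18497017 to 18499986 on the minus strand. Such an alignment opposite to the gene is rare in the table, at 119 of 36658 probe sets of a single gene with both strands known (0.325%), of which 9.24% passed. At 11757729_s_at the log2 signal was 4.65, 4.69 and 4.83 in SOX9 shRNA cells and 4.62, 5.05 and 4.70 in empty-virus cells, so the groups overlapped. The log2 fold change was -0.07 (95% interval -0.36 to 0.23, limma adjusted p = 0.820). At 11757730_x_at the signal was 3.99, 3.71 and 3.97 in SOX9 shRNA cells and 4.13, 4.11 and 4.17 in empty-virus cells, so the groups did not overlap. Its log2 fold change was -0.25 (95% interval -0.49 to -0.01, limma adjusted p = 0.177). Within arrays, 11716663_a_at stood above 11757729_s_at by 0.75, 0.99 and 0.64 log2 units in SOX9 shRNA cells, against 2.54, 2.02 and 2.13 in empty-virus cells. This pair was chosen after the values were seen and restates the fall of 11716663_a_at, so no test is given. On the gene's mean over all 5 probe sets the log2 fold change was -0.96 (limma adjusted p = 2.06e-04 over genes).

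**Figure D1:**
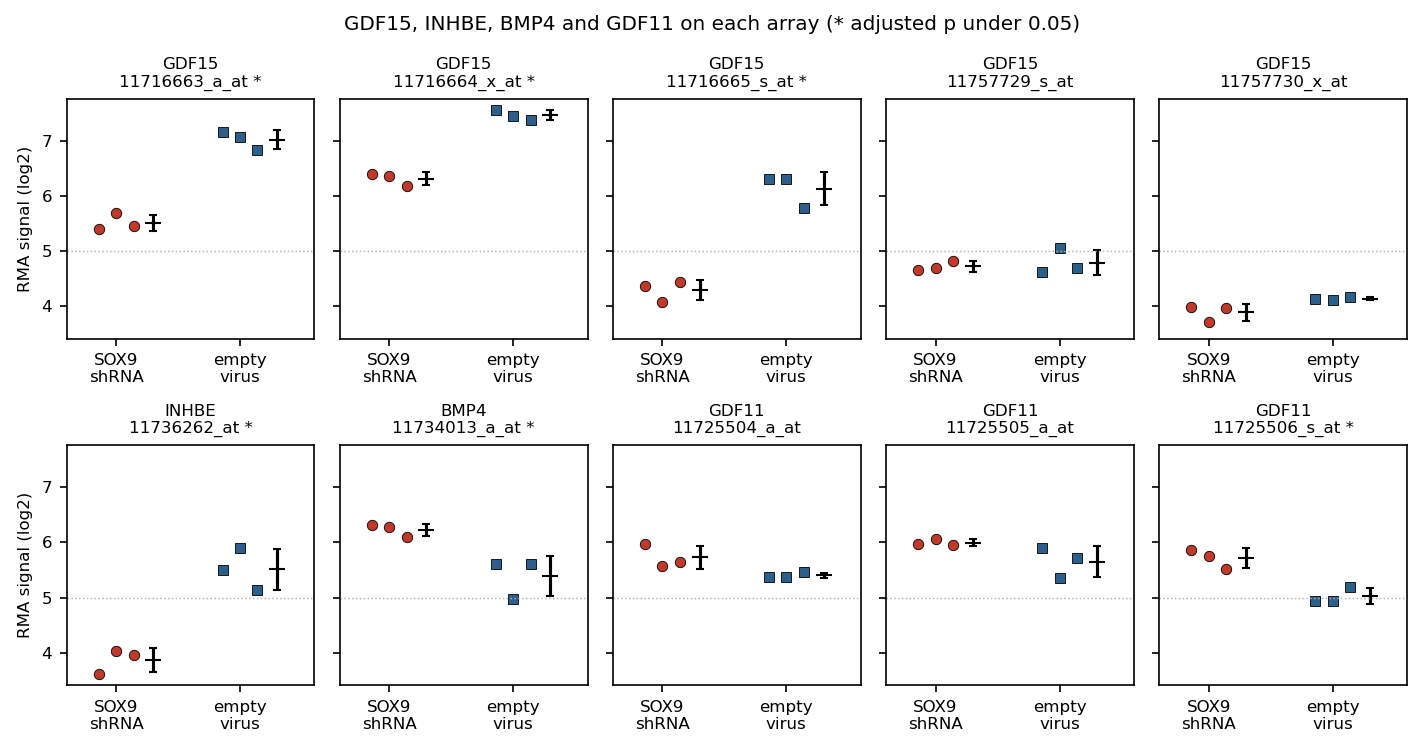
Log2 RMA signal (y axis) of each probe set of GDF15, INHBE, BMP4 and GDF11 on the 3 SOX9 shRNA arrays (circles, left) and the 3 empty-virus arrays (squares, right), with the mean and SD beside each group and a dotted line at 5. The 3 GDF15 sets on the gene's own strand and INHBE are lower in SOX9 shRNA cells with wide gaps, the 2 GDF15 sets aligned to the other strand lie close together in both groups, and BMP4 and GDF11 are higher in SOX9 shRNA cells.

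INHBE, the activin E subunit, fell at its single probe set, 11736262_at, which the table places on chromosome 12, positions 57848934 to 57851791, plus strand. The log2 signal was 3.61, 4.02 and 3.95 in SOX9 shRNA cells, against 5.51, 5.89 and 5.15 in empty-virus cells. No knockdown array came within 1 log2 unit of an empty-virus array. The log2 fold change was -1.65 (SE 0.19, limma adjusted p = 0.00135), 66th from the lowest among all probe sets. INHBE passed under each of the same 14 settings, at -1.84 to -1.33. INHBA, the activin A subunit from the same subfamily, did not pass at either of its 2 sets. At 11746931_a_at INHBA averaged 5.08 ± 0.06 in SOX9 shRNA cells and 4.99 ± 0.08 in empty-virus cells (SD, n = 3 each), with overlapping groups and a 95% interval of the log2 fold change of -0.13 to 0.31. Its other set, 11731496_at, averaged 3.04 ± 0.04 and 3.03 ± 0.08 in the same order.

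BMP4, a BMP that patterns mesoderm and acts in liver development, rose at its single probe set, 11734013_a_at (chromosome 14, positions 54416456 to 54423580, minus strand). The log2 signal was 6.31, 6.28 and 6.10 in SOX9 shRNA cells, against 5.60, 4.97 and 5.61 in empty-virus cells. The knockdown arrays were close to each other and above every empty-virus array, with empty-virus array 2 the lowest of all. The log2 fold change was 0.84 (SE 0.17, limma adjusted p = 0.0144), a 1.79-fold rise. The call was lost without SOX9 shRNA array 1 (0.80, adjusted p = 0.0644) and with the spike-in level as a covariate (0.74, adjusted p = 0.166).

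GDF11, a close relative of myostatin, rose at 1 of its 3 probe sets. At 11725506_s_at the log2 signal was 5.87, 5.76 and 5.51 in SOX9 shRNA cells, against 4.95, 4.94 and 5.20 in empty-virus cells. The groups did not overlap, and the log2 fold change was 0.68 (SE 0.13, limma adjusted p = 0.00930; 0.54 with adjusted p = 0.130 when the spike-in level was a covariate). At 11725504_a_at the signal was 5.97, 5.57 and 5.65 in SOX9 shRNA cells and 5.38, 5.38 and 5.46 in empty-virus cells, a log2 fold change of 0.32 (95% interval 0.05 to 0.60, adjusted p = 0.128). At 11725505_a_at it was 5.97, 6.07 and 5.96 in SOX9 shRNA cells and 5.90, 5.35 and 5.71 in empty-virus cells, a log2 fold change of 0.35 (95% interval 0.03 to 0.66, adjusted p = 0.153). All 3 sets read higher on each knockdown array than on any empty-virus array, and 2 of them did not pass. They align to the same positions of chromosome 12, 56137063 to 56148690 on the plus strand, so they sample one locus and are not independent. The excess of 11725506_s_at over 11725505_a_at differed between groups by 0.34 log2 units, and that over 11725504_a_at by 0.36. These pairs were chosen because 11725506_s_at passed and the others did not, so no test is given.

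BMP2, which in the liver induces hepcidin together with BMP6, read lower in SOX9 shRNA cells at both probe sets without passing. At 11743497_at the log2 signal was 6.03, 5.999 and 6.40 in SOX9 shRNA cells and 6.42, 7.11 and 6.61 in empty-virus cells, so that the highest knockdown array lay just under the lowest empty-virus array. The log2 fold change was -0.57 (95% interval -0.98 to -0.16, limma adjusted p = 0.0756), and it read -0.37 without empty-virus array 2. At 11743498_at the signal was 7.39, 7.28 and 7.23 in SOX9 shRNA cells and 7.54, 7.44 and 7.91 in empty-virus cells, with a log2 fold change of -0.33 (95% interval -0.63 to -0.03, adjusted p = 0.152). Neither set passed under any of the same 14 settings. BMP7, a BMP of kidney and skeletal development, read near the low end at both sets. Set 11724297_a_at averaged 4.51 ± 0.22 in SOX9 shRNA cells and 4.47 ± 0.19 in empty-virus cells, and 11724296_a_at averaged 3.33 ± 0.22 and 3.41 ± 0.22 in the same order (SD, n = 3 each), with limma adjusted p = 0.911 and 0.829.

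TGFB1, the founding ligand of the family, was measured by 1 set, 11716385_at, at 4.79, 4.64 and 4.37 in SOX9 shRNA cells and 4.48, 4.23 and 4.16 in empty-virus cells. The groups overlapped and the log2 fold change of 0.31 did not pass (95% interval 0.00 to 0.62, limma adjusted p = 0.184). TGFB2 had one set at 4.98, 5.27 and 5.06 in SOX9 shRNA cells and 5.85, 5.47 and 5.26 in empty-virus cells, 11740596_a_at, with overlapping groups. Its log2 fold change was -0.42 (95% interval -0.77 to -0.07, limma adjusted p = 0.116), and it moved with the setting. It passed without empty-virus array 3 (-0.555, limma adjusted p = 0.0356) and with array weights (-0.55, adjusted p = 0.0327), and shrank to -0.26 without empty-virus array 1 (adjusted p = 0.325) and to -0.12 with the spike-in covariate (adjusted p = 0.776). The other TGFB2 set, 11736553_a_at, read -0.02 (95% interval -0.48 to 0.44, adjusted p = 0.972). FST, the activin antagonist, did not pass at any of its 3 sets. The brightest, 11732712_a_at, read 8.46, 8.40 and 8.26 in SOX9 shRNA cells and 8.52, 8.18 and 8.39 in empty-virus cells, a log2 fold change of 0.01 (95% interval -0.25 to 0.28, limma adjusted p = 0.964). The other sets, 11724032_a_at and 11732713_at, read -0.07 and 0.11, with adjusted p = 0.774 and 0.684.

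**Figure D2:**
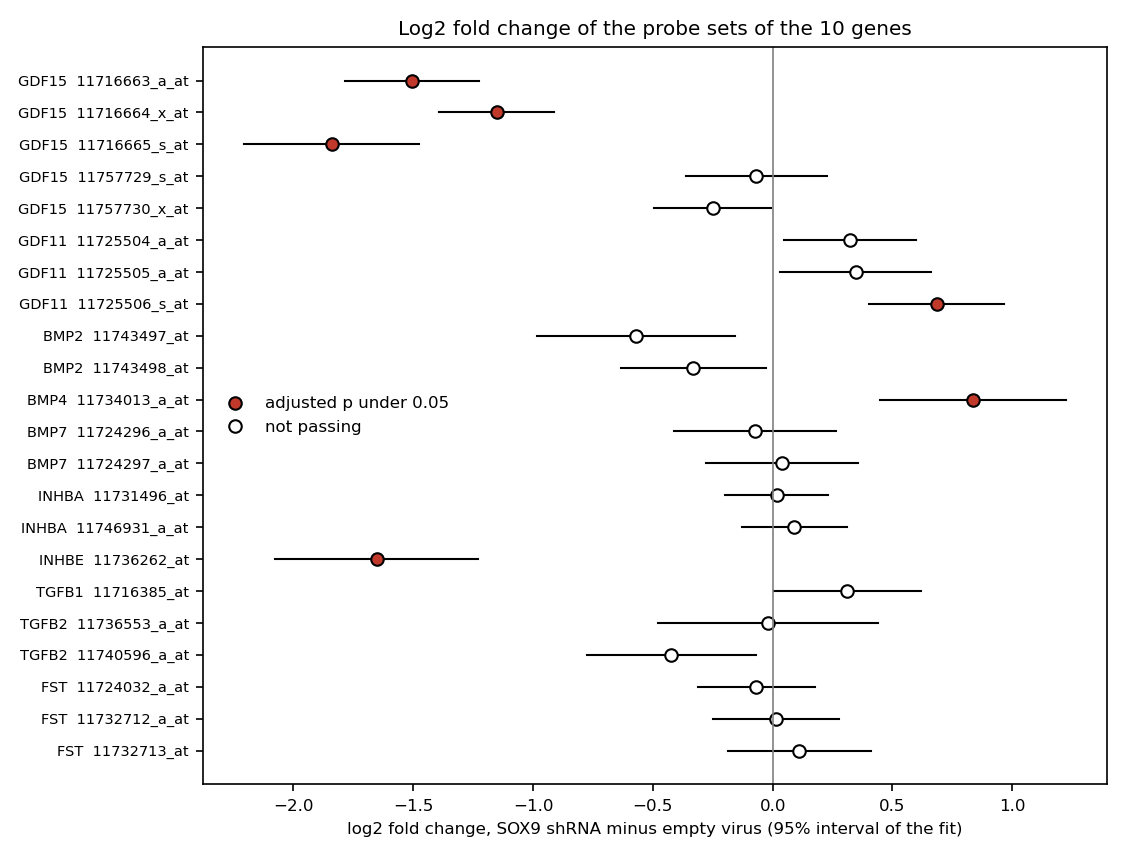
Log2 fold change (x axis, SOX9 shRNA minus empty virus) of each of the 22 probe sets of the 10 genes, with the 95% interval of the fit; filled points passed at an adjusted p under 0.05. The 3 passing GDF15 sets and INHBE lie between -1.84 and -1.15, BMP4 and 1 GDF11 set lie at 0.84 and 0.68, and the 16 others lie within 0.57 of 0.

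The genes whose array pattern was most like that of a passing gene were taken as those with the smallest root mean square distance over the 6 arrays after centring each gene, among 11875 genes with a mean of at least 5 in a group. For GDF15 these included GRB10, an adaptor of insulin receptor signalling (distance 0.05, log2 fold change -1.11), and WDR54 (0.06 and -1.08). For INHBE they were the noncoding RNA host gene SNHG32 (0.16 and -1.56), the histone gene H2AC6 (0.17 and -1.37) and PCK1, the cytosolic phosphoenolpyruvate carboxykinase (0.17 and -1.41). For BMP4 they were NACC2 (0.07 and 0.92), the ATF4 relative ATF5 (0.08 and 0.87) and ZSCAN5A (0.09 and 0.72). The distances carry no test, and each of these genes also differed between the groups in the direction of the gene it is set beside.

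Most other listed target genes of ATF4 fell with GDF15 and INHBE. Of 40 measured, 31 fell and 0 rose (77.5%), against 8.33% lower and 8.40% higher of all 18601 genes by limma at an adjusted p under 0.05. Their median log2 fold change was -0.73, against 0.03 for all genes. The count covers the listed genes alone. The ATF4 relative ATF5, named above beside BMP4, is not on the list and rose by 0.87 (limma adjusted p = 0.00657 over genes). ASNS averaged 9.65 ± 0.08 in SOX9 shRNA cells and 12.01 ± 0.17 in empty-virus cells, DDIT3, the stress factor CHOP, 5.55 ± 0.13 and 7.42 ± 0.23, PCK2, the mitochondrial phosphoenolpyruvate carboxykinase, 6.80 ± 0.13 and 8.62 ± 0.115, and CTH, an enzyme of cysteine synthesis, 7.94 ± 0.13 and 9.51 ± 0.15, in the same order (SD, n = 3 each). Their log2 fold changes were -2.36, -1.87, -1.83 and -1.56. Without adjustment, 33 were lower and 0 higher at a p under 0.05. The 9 that did not pass read between -0.34 and 0.18. The transcript of ATF4 itself fell by 0.44 on the log2 scale (limma adjusted p = 0.0172), a call that was lost without SOX9 shRNA array 1 or 3 or empty-virus array 1 and with the spike-in covariate (adjusted p = 0.077). The list was drawn up with earlier results of these data known, so its direction is no independent evidence.

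For p53, the other known regulator of GDF15, 19 of 20 listed targets were measured, of which 5 rose and 2 fell (36.8%, against 16.7% of all genes) with a median of 0.16. AEN, a nuclease induced by p53, rose by 0.61, TP53I3 by 0.59, SESN1 by 0.56 and TIGAR by 0.54 (limma adjusted p = 0.00318, 0.0101, 0.00395 and 0.0288). With the spike-in covariate none of these 4 passed (adjusted p = 0.0596, 0.166, 0.0686 and 0.0646), and TIGAR was also lost without SOX9 shRNA array 2 or 3 or empty-virus array 1 or 3. The others that passed, chosen after their values were seen, were PHLDA3 (0.48), which rose, and the DNA repair genes XPC (-0.53) and DDB2 (-0.50), which fell. CDKN1A and MDM2, well-known p53 targets named after their values were seen, read -0.23 and -0.10 and did not pass (limma adjusted p = 0.143 and 0.751).

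Across 7 lists of the pathway (other ligands, receptors, antagonists, latency and processing proteins, SMADs, and target genes of TGF-beta or BMP), 29 of 118 distinct genes passed (24.6%, against 16.7% of all genes), 11 higher and 18 lower, with a median log2 fold change of 0.02. These lists too were drawn up with earlier results of these data known, so this share is no independent evidence. Leaving out a SOX9 shRNA array gave 15 passing genes (array 1), 16 (array 2) and 19 (array 3). Leaving out an empty-virus array gave 16 (array 1), 23 (array 2) and 31 (array 3). With the spike-in covariate 8 passed: BMP6, FSTL1, FBN2, THBS1, CCN2, SNAI2, BHLHE40 and HEY1.

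Among 22 other ligands, 2 fell and 0 rose (9.09%, below the 16.7% of all genes), and 7 had a mean of at least 5 in a group. Without adjustment, 3 were higher and 3 lower at a p under 0.05. BMP6, the main inducer of hepcidin, read 7.26, 7.24 and 7.14 in SOX9 shRNA cells and 7.88, 7.88 and 7.77 in empty-virus cells, a log2 fold change of -0.63 (limma adjusted p = 0.00172), and both of its probe sets passed. GDF9, an oocyte factor, changed by -0.43 (limma adjusted p = 0.0492) from a signal under 5 in both groups, and the call held in 1 of the 6 fits that left out an array.

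Of 19 receptors and co-receptors, 2 rose and 3 fell (26.3%, against 16.7% of all genes). ENG (endoglin), a co-receptor for TGF-beta and BMP9, rose by 0.81 (limma adjusted p = 0.00222), at 7.87 ± 0.17 in SOX9 shRNA cells and 7.06 ± 0.17 in empty-virus cells (SD, n = 3 each), and all 5 of its probe sets passed. TGFBR2, the type II receptor of TGF-beta, rose by 0.41 (limma adjusted p = 0.0179). Among those that fell were BAMBI, a decoy receptor without a kinase (-0.49), and ACVR1B, the type I receptor of activin (-0.41). Of the 6 fits that left out an array, the call held in 2 for TGFBR2, 1 for BAMBI and 4 for ACVR1B. On the mean of its probe sets TGFBR2 read 0.17 and did not pass. ACVR1B passed at 1 of its 5 probe sets, and on their mean it read -0.13 and did not pass (limma adjusted p = 0.359). The third that fell was RGMB (-0.32), a BMP co-receptor named after its value was seen.

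Of 18 secreted antagonists other than FST, 2 rose and 2 fell (22.2%, near the 16.7% of all genes). FSTL3, a follistatin relative that binds activin and myostatin, rose by 0.57 (limma adjusted p = 0.0148), at all 3 of its probe sets, though the gene's call was lost without SOX9 shRNA array 1 or 2. FSTL1 rose by 0.53 (limma adjusted p = 0.00314), but its second probe set read -0.11 and the mean of its sets did not pass (0.21, adjusted p = 0.293). NOG (noggin), which blocks BMPs including BMP4, fell by 0.45 (limma adjusted p = 0.0109), reading 5.93, 5.98 and 5.83 in SOX9 shRNA cells and 6.29, 6.33 and 6.46 in empty-virus cells. CRIM1, a membrane protein that binds BMPs, changed by -0.45 (limma adjusted p = 0.0246) and lost its call without SOX9 shRNA array 1 or 2 or empty-virus array 1 or 2.

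Of 19 proteins of latency and processing, 4 rose and 2 fell (31.6%, against 16.7% of all genes). FBN2 (fibrillin 2), a microfibril protein that binds latent complexes and BMPs, rose by 1.06 (limma adjusted p = 2.79e-04), at 9.58, 9.59 and 9.57 in SOX9 shRNA cells and 8.47, 8.39 and 8.71 in empty-virus cells, with 3 of its 5 probe sets passing. ITGB8, a subunit of the integrin that activates latent TGF-beta, rose by 0.78 and THBS1 (thrombospondin 1), another activator, by 0.66 (limma adjusted p = 0.0321 and 0.0314). LTBP1, which tethers latent TGF-beta, fell by 0.66 on the log2 scale (limma adjusted p = 0.00697). Single probe sets of FBN2, THBS1 and LTBP1 read -0.17, -0.07 and 0.14, against the direction of the gene, and the mean over probe sets did not pass for THBS1 (0.16) or LTBP1 (-0.215). THBS1 was lost without any 1 of the SOX9 shRNA arrays and ITGB8 without SOX9 shRNA array 1 or 3 or empty-virus array 1 or 3. The other 2 that passed, named after their values were seen, were the convertase PCSK6 (0.46) and TLL1, a protease of the BMP1 family (-0.38).

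Of 15 SMADs and regulators, 1 rose and 2 fell (20.0%, near the 16.7% of all genes). SMAD2, the signal carrier of TGF-beta and activin, fell by 0.53 on the log2 scale (limma adjusted p = 0.00715), with 5 of its 7 probe sets passing, and the co-repressor TGIF1 by 0.73 (limma adjusted p = 0.00321). SMURF2, a ubiquitin ligase for SMADs and receptors, rose by 0.56 (limma adjusted p = 0.00488), and on the mean of its sets it read 0.34 and did not pass. Of 18 target genes of TGF-beta and activin, 2 rose and 6 fell (44.4%, against 16.7% of all genes). CCN2 rose by 1.41 (limma adjusted p = 1.13e-04), while SNAI2, BHLHE40 and TSC22D1 changed by -1.26, -1.13 and -0.75 (limma adjusted p = 3.58e-04, 0.00182 and 0.00573). The other gene that rose, chosen after its value was seen, was TAGLN (0.52). Of 16 BMP targets, 0 rose and 4 fell (25%, against 8.33% of all genes lower and 16.7% in either direction), with 3 higher at an unadjusted p under 0.05. Those that fell were HEY1 (-0.58), BAMBI (-0.49), ID3 (-0.45) and NOG (-0.45). HAMP, the hepcidin gene, and ID1, both named after their values were seen, read -0.01 and -0.03. Neither passed (limma adjusted p = 0.984 and 0.903). The calls of BAMBI and of ID3 (limma adjusted p = 0.0219 and 0.0317) each held in 1 of the 6 fits that left out an array. The ID3 signal was 10.56, 10.61 and 10.49 in SOX9 shRNA cells and 11.22, 11.02 and 10.76 in empty-virus cells. The part of the GAPDH difference in these results was not tested.

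**Figure D3:**
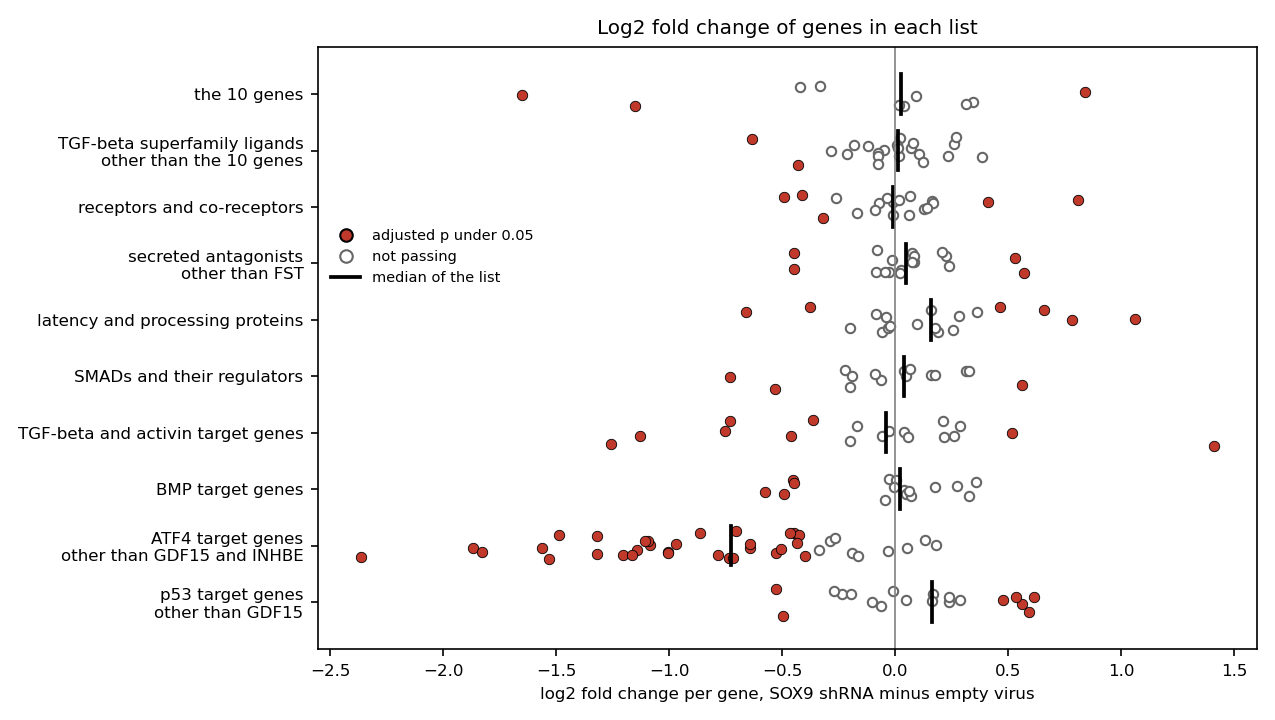
Log2 fold change per gene (x axis, SOX9 shRNA minus empty virus) for the 10 genes and 9 lists of related genes, each gene by its probe set of highest mean. Filled points passed at an adjusted p under 0.05, and bars mark list medians; the ATF4 targets have a median of -0.73, and the medians of the other lists lie between -0.04 and 0.16.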

How the data were processed

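The authors deposited log2 expression values of 49372 probe sets on 6 arrays, made with RMA and the affy package per the submitters' processing notes (no source used here names versions). RMA equalises arrays and shrinks differences at low signal, set here at under 5. The second deposited table held identical log2 values. Of the probe sets, 79 were controls and 46274 of the rest had a single gene, named through Entrez numbers and RefSeq (GRCh38.p14).

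The test was a two-sided linear model per probe set (lmFit and eBayes of limma 3.58.1, R 4.3.3) without covariate or filter, over all 49293 probe sets for the 10 genes, and over 18601 genes, each by its probe set of highest mean, for the lists. Adjusted p-values are Benjamini-Hochberg values with a threshold of 0.05. The number of arrays limits the precision. The fit was tested on simulated data. Python 3.11.15 with pandas 2.3.3 and matplotlib 3.10.9 made tables and plots.

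The genes and lists were chosen with earlier results of these data known. Named were the 10 genes, SOX9, ATF4, ALB, AFP and APOA1 (-0.21, adjusted p = 0.237), the 4 largest passing changes of each list (or, with none, the 2 smallest p, such as APOB at -0.215 and CLDN5 at -0.05), and the 3 nearest genes of each passing one, of which 1 is not reported here. Alternatives were a signal filter, cyclic loess, other variance models, array weights, the replicate block, a spike-in covariate, other probe set rules and leaving out each array. The second deposited table was also fitted, which repeats the main fit because its values were identical.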

Additional observations from a re-analysis of the deposited data

How the results depend on the processing

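The 3 falls of GDF15 and that of INHBE passed under all 14 alternatives run. These include the second deposited table, whose identical values repeat the main fit. The signal filter kept INHBE and GDF15 11716665_s_at only through their empty-virus means, 5.52 and 6.13. The count of passing probe sets of the 10 genes was 4 with the spike-in covariate, 5 to 7 when an array was left out, 7 with array weights and 6 otherwise. The spike-in covariate, known from earlier results to lower the counts, gave 985 probe sets, 762 genes and 8 pathway genes. Same-numbered arrays did not deviate together (r = -0.24, -0.40 and -0.42, against -0.15 to 0.53 for differently numbered arrays), and the replicate block gave 3343 of 49293 probe sets and 6 of the 22. Of the named genes that passed, those not called with the block were ATF4 (adjusted p = 0.057), ACVR1B (0.0653), TGFBR2 (0.0682), CRIM1 (0.0612) and GDF9 (0.0917). Leaving out an array gave 2508 to 8757 probe sets, 1759 to 3561 genes, 15 to 31 pathway genes and 28 to 31 ATF4 targets (22 with the covariate). Signs turned only for sets that did not pass: with array weights INHBA 11731496_at (-0.013) and FST 11732712_a_at (-0.019), with the covariate BMP7 11724296_a_at (0.21), and when an array was left out GDF15 11757729_s_at (-0.152 to 0.064), BMP7 11724296_a_at (-0.2005 to 0.028) and 11724297_a_at (-0.042 to 0.162), INHBA 11731496_at (-0.027 to 0.053), TGFB2 11736553_a_at (-0.216 to 0.1499), and FST 11732712_a_at (-0.076 to 0.092) and 11732713_at (-0.024 to 0.194). The causes were not tested. With 3 arrays a group and no measure of background, changes of sets under 5 can be missed.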
